A study of Mus musculus with 32 samples.

Results

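The 35 genes described here are genes by which mouse macrophages are recognised or through which they work. They were listed by name and looked up by symbol among the 22329 symbols of the deposited expression table, and all 35 were found. They were then divided by their level in cultured tumor cells: 25 genes had a mean under 1 TPM in both cultured lines and are called absent from culture, and 10 genes reached 1 TPM in at least 1 of them and are called expressed in culture. TPM gives a gene's transcripts as a share of all transcripts in the library, corrected for their length, so levels may be compared between genes. The tumor cells are MC38, derived from a mouse adenocarcinoma of the colon. They were used as the parental line and as a line that resists antibody against PD-1, the checkpoint receptor of T cells. The 4 groups were 13 parental tumors and 12 resistant tumors, both grown under the skin of C57BL6/J mice that received no treatment, and 2 parental and 5 resistant libraries of untreated cultured cells. C57BL6/J mice have an intact immune system, so the tumors can hold host macrophages beside the injected cells. How resistance was raised, whether the resistant line is a single clone, and the age and sex of the mice are not given in the sources used here.

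Macrophages are phagocytes that arise from blood monocytes or from embryonic precursors and survive on signals through the receptor Csf1r. They bind antibody-coated cells through Fc receptors, whose signal passes through small adaptor proteins that carry a tyrosine motif (an ITAM) and recruit the kinase Syk, and they digest what they engulf in lysosomes. In tumors they are often the most abundant leukocytes and occur in several states, among them a scavenging state marked by Cd163, Mrc1 and Folr2 and a lipid-handling state marked by Trem2, Apoe and Gpnmb.

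Read totals are not part of the table, so sequencing depth cannot be given and precision rests on the spread between libraries. Between 11573 and 13308 genes reached 1 TPM per tumor and between 10470 and 10978 per culture. A GC index was computed for each tumor, as the median of its GC-rich genes minus the median of its GC-poor genes, on the log2 scale and each gene relative to its mean over the tumors. It ran from -0.27 to 0.81 in parental tumors (median -0.02) and from -0.52 to 0.26 in resistant tumors (median -0.26), and 4 parental tumors (2, 3, 7 and 8) lay above 0.5, the remaining 21 tumors below. Parental tumor 3 stood apart from the other tumors of its line. Ptprc, the gene of the pan-leukocyte protein CD45, was at 14.5 TPM there, the lowest of the line, and the tumor was also the lowest of its line for 16 of 23 macrophage genes absent from culture. Results that rest on these libraries are given with and without them below.

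Most macrophage genes were lower in resistant than in parental tumors. Of the 35 genes, 33 reached the level needed for a test (1 TPM in at least 12 tumors) and Lyz1 and Vsig4 did not. Among the 33, limma called 25 lower at an adjusted p under 0.05, against 13.9% of all 12095 genes tested, and 2 higher, Cd163 and Mertk, against 16.3% of all genes. The median log2 fold change, resistant minus parental on the log2(TPM + 1) scale, was -0.76 for the 33 genes and 0.04 for all genes tested, and 29 of 33 were below zero against 45.5% of all genes. Of the 23 tested genes absent from culture, 17 were lower, 1 higher and 5 not called, and of the 10 expressed in culture, 8 were lower, 1 higher and 1 not called. For none of the 33 did the 2 sets of tumors separate completely, against 0.546% of all genes that separated as lower and 0.496% as higher. Without parental tumor 3 the counts were also 25 and 2. They were 22 and 2 in a fit that took the GC index as a covariate. That fit called 1811 of all 12095 genes lower and 2171 higher. Without the 4 parental tumors above 0.5 the counts were 25 and 2, with 1626 of all 12175 genes lower and 1718 higher. In a bulk tumor library, fewer macrophages and less RNA of a gene per macrophage cannot be told apart. Ptprc itself was at 35.6 ± 10.9 TPM (SD, n = 13) in parental and 27.4 ± 8.98 TPM (n = 12) in resistant tumors, a log2 fold change of -0.35 ± 0.17 (SE, limma adjusted p = 0.125). A fit with Ptprc as a covariate called 20 members lower and 2 higher. Of all 12095 genes that fit called 2320 lower and 3052 higher, against 1678 and 1969 without the covariate.

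**Figure D1:**
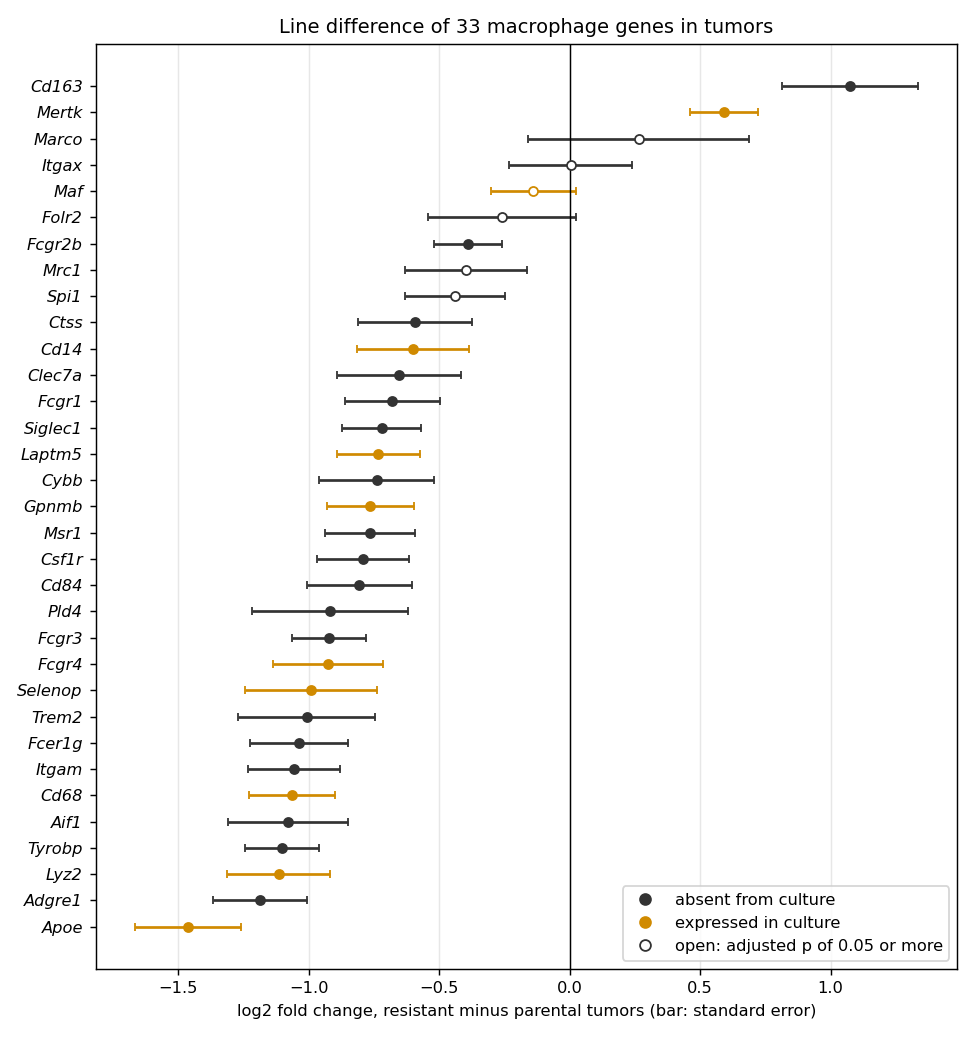
Log2 fold change (resistant minus parental tumors, x axis) of the 33 macrophage genes tested, with the standard error as bars, in order of size. Cd163 and Mertk are the filled points to the right of zero, and the 25 filled points to the left run from Fcgr2b at -0.39 to Apoe at -1.46.

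The genes of macrophage identity and growth that were absent from culture were led by Adgre1. Adgre1 encodes F4/80, the membrane protein by which mouse macrophages are most often recognised. In culture it was at or below 0.254 TPM in each of the 7 libraries, and Csf1r was at or below 0.12 TPM, so cultured MC38 cells carried next to none of either RNA. Adgre1 ranged from 8.23 to 34.5 TPM (median 26.98) in parental tumors and from 6.19 to 13.9 TPM (median 11.1) in resistant tumors. The lines met only through 1 tumor: 12 of 13 parental tumors lay above the highest resistant tumor, and 4 of 12 resistant tumors lay below the lowest parental one. Its log2 fold change was -1.19 ± 0.18 (SE, limma adjusted p = 1.64e-05), the largest fall among the genes absent from culture. Csf1r, the receptor for the macrophage growth factors Csf1 and Il34, ranged from 10.9 to 71.3 TPM (median 34.6) in parental tumors and from 14.1 to 24.3 TPM (median 17.4) in resistant tumors. Of the parental tumors, 11 lay above the highest resistant tumor and 1, tumor 3, lay below the lowest, and the log2 fold change was -0.79 ± 0.18 (SE, limma adjusted p = 0.00118). Aif1, which encodes the actin-bundling protein Iba1, ranged from 21.8 to 121 TPM (median 75.5) in parental tumors and from 17.1 to 68.2 TPM (median 36.5) in resistant tumors and fell by 1.08 on the log2 scale (SE 0.23, limma adjusted p = 0.000819). In this gene 9 parental tumors exceeded every resistant tumor. Cd84, an adhesion receptor of the SLAM family, ranged from 10.9 to 49.6 TPM (median 33.6) in parental tumors and from 10.4 to 28.1 TPM (median 16.4) in resistant tumors, with 7 parental tumors above every resistant one and a log2 fold change of -0.81 ± 0.20 (SE, limma adjusted p = 0.00324).

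Spi1 encodes PU.1, the transcription factor on which the macrophage lineage depends, and it was not called. It was at 53.6 ± 15.1 TPM on average in the parental line against 38.02 ± 9.96 TPM in the resistant line (SD, n = 13 and 12), a log2 fold change of -0.44 ± 0.19 (SE, limma adjusted p = 0.0824) with a 95% interval of -0.83 to -0.05. Parental tumor 3 held 13.03 TPM of Spi1, while the other parental tumors held at least 41.98 TPM. Leaving it out gave -0.60 (limma adjusted p = 0.00083), and leaving out tumors 2, 3, 7 and 8 together gave -0.58 (limma adjusted p = 0.00285).

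The integrins of myeloid cells differed from each other. Itgam, which encodes CD11b, the alpha chain of a complement receptor, ranged from 48.3 to 143 TPM (median 82.7) in parental tumors and from 18.5 to 62.03 TPM (median 41.2) in resistant tumors. Of the resistant tumors 9 lay below the lowest parental tumor, of the parental tumors 9 lay above the highest resistant one, and the log2 fold change was -1.06 ± 0.18 (SE, limma adjusted p = 5.55e-05). Itgax, which encodes CD11c, an integrin alpha chain that dendritic cells carry as well as macrophages, was at 17.7 ± 6.97 TPM on average in the parental line against 16.8 ± 6.16 TPM in the resistant line. Its tumors overlapped almost fully, and 4 of 12 resistant tumors lay above the parental mean. Its log2 fold change was 0.00 ± 0.23 (SE, limma adjusted p = 0.991) with a 95% interval of -0.48 to 0.49. Neutrophils and monocytes also carry Itgam. Of 3 neutrophil markers tested 2 were lower, and of 6 monocyte markers 1, against 13.9% of all 12095 genes tested. In both lists 0 were called higher by limma. The 6 neutrophil markers summed to 8.17 to 32.3 TPM in parental and 3.91 to 12.46 TPM in resistant tumors, with Retnlg at 0 in all resistant tumors. The 6 monocyte markers summed to 113 to 458 TPM in parental and 140 to 345 TPM in resistant tumors. The part of either cell type in the Itgam result was not tested.

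**Figure D2:**
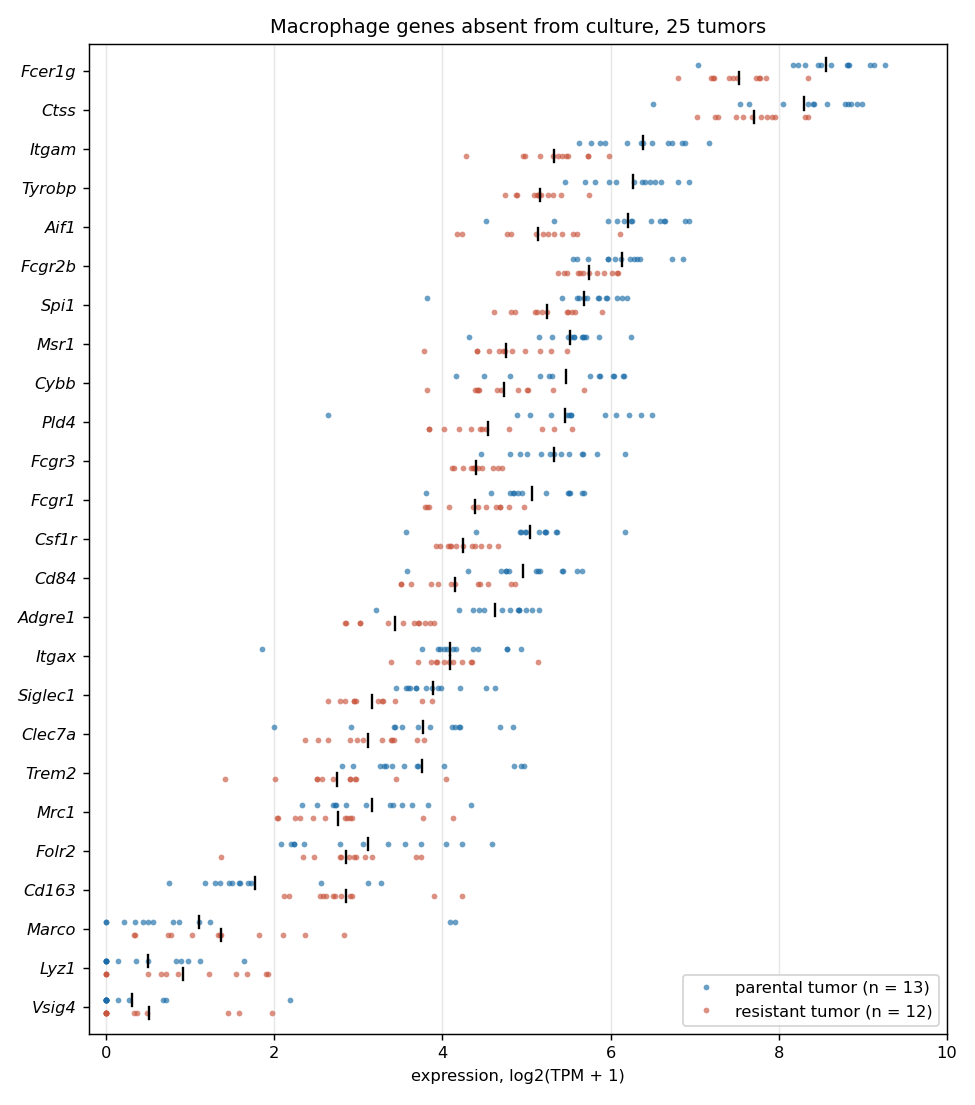
Level of each of the 25 macrophage genes absent from culture, log2(TPM + 1) on the x axis, with a point for each of 13 parental and 12 resistant tumors and a black bar at the mean of each line. The resistant mean lies to the right of the parental mean for Cd163, by an invisible 0.0044 for Itgax, and at the foot of the plot, where levels are low, for Marco, Lyz1 and Vsig4.

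The Fc receptors and the adaptors through which they signal were all lower in resistant tumors. Fcer1g, the ITAM-bearing gamma chain that serves the activating Fc receptors, was the most abundant gene of this group and ranged from 131 to 611 TPM (median 392) in parental tumors and from 110.4 to 325 TPM (median 177) in resistant tumors. For Fcer1g 9 parental tumors exceeded every resistant tumor, and the log2 fold change was -1.04 ± 0.19 (SE, limma adjusted p = 0.000139). Tyrobp encodes DAP12, the ITAM adaptor of Trem2 and of several receptors on NK cells, and was listed at 0 in all 7 cultures. It ranged from 43.1 to 121 TPM (median 81.8) in parental tumors and from 25.7 to 52.4 TPM (median 34.3) in resistant tumors. The separation was the clearest of the 33 genes by the number of tumors outside the other line's range, since 11 of 12 resistant tumors lay below the lowest parental tumor and 11 of 13 parental tumors above the highest resistant one, and the log2 fold change was -1.10 ± 0.14 (SE, limma adjusted p = 1.64e-06). Of 4 NK cell markers tested 2 were lower and 0 higher by limma (2 and 1 at an unadjusted p under 0.05). Of all 12095 genes 13.9% were lower and 16.3% higher. The sum of the 5 listed was 12.6 to 28.5 TPM in parental and 14.7 to 29.7 TPM in resistant tumors. The MC38 cultures also carried this sum, with 8.6 to 9.3 TPM in the parental and 7.64 to 11.7 TPM in the resistant line. In culture 4 of the 5 were at 0 and the sum was Eomes alone, so it is not a measure of NK cells alone. The part of NK cells in the Tyrobp result was not tested.

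Fcgr1, the high-affinity receptor for IgG, ranged from 12.9 to 50.5 TPM (median 29.8) in parental tumors and from 12.8 to 30.4 TPM (median 21.2) in resistant tumors, and its log2 fold change was -0.68 ± 0.18 (SE, limma adjusted p = 0.0057). In Fcgr1 6 parental tumors exceeded every resistant tumor. Fcgr3, a low-affinity activating receptor, ranged from 20.98 to 70.97 TPM (median 39.3) in parental tumors and from 16.3 to 25.2 TPM (median 19.8) in resistant tumors. In Fcgr3 12 of 13 parental tumors lay above every resistant tumor and 8 of 12 resistant tumors below every parental one, with a log2 fold change of -0.92 ± 0.14 (SE, limma adjusted p = 1.89e-05). Fcgr2b, the inhibitory receptor of the family, ranged from 45.95 to 115 TPM (median 68.5) in parental tumors and from 40.5 to 66.98 TPM (median 51.4) in resistant tumors and had the smallest fall called among the 33 genes, -0.39 ± 0.13 (SE, limma adjusted p = 0.0236). In Fcgr2b 7 parental tumors lay above every resistant one, and the call ended with Ptprc as a covariate (-0.27, limma adjusted p = 0.0871). Transcripts of Fcgr2b and Fcgr3 share 13.4% of the distinct 31-base words of Fcgr3 and 4.15% of those of Fcgr2b, so reads from the shared stretch may have been divided between them in a way that the table does not show. No word is shared between Fcgr3 and Fcgr4, Fcgr2b and Fcgr4, or Fcgr1 and Fcgr3.

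Receptors that sense lipids and fungal sugars were lower, with calls that 1 or more settings ended. Trem2, a lipid receptor of macrophages that signals through Tyrobp, ranged from 5.99 to 30.4 TPM (median 10.7) in parental tumors and from 1.66 to 15.5 TPM (median 5.98) in resistant tumors, so that 3 parental tumors exceeded every resistant tumor. Its log2 fold change was -1.01 ± 0.26 (SE, limma adjusted p = 0.00469). A fit that took the GC index as a covariate gave -0.55 (limma adjusted p = 0.0639). Parental tumors 2 and 8, with GC indices of 0.81 and 0.71, held 30.4 and 27.8 TPM of Trem2, and tumor 11, with 0.26, held 29.7 TPM. Clec7a, the beta-glucan receptor Dectin-1, ranged from 2.98 to 27.6 TPM (median 13.4) in parental tumors and from 4.14 to 12.7 TPM (median 8.01) in resistant tumors, with a log2 fold change of -0.65 ± 0.24 (SE, limma adjusted p = 0.0375). Of the parental tumors 7 lay above every resistant one and 1 below. The Clec7a call ended in 13 of 25 fits that left out 1 tumor (parental 1, 2, 7, 8, 9, 10 or 11, or resistant 1, 2, 5, 8, 9 or 11), at -0.65 to -0.56. It also ended once Ptprc was a covariate (-0.48, limma adjusted p = 0.108) and once the GC index was (-0.64, limma adjusted p = 0.0651).

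The scavenger and resident-type receptors absent from culture went in different directions. Msr1, the scavenger receptor A that takes up modified lipoproteins, ranged from 18.9 to 74.8 TPM (median 46.4) in parental tumors and from 12.7 to 43.6 TPM (median 25.6) in resistant tumors, with 10 parental tumors above every resistant one and a log2 fold change of -0.76 ± 0.17 (SE, limma adjusted p = 0.00134). Siglec1, the sialic acid receptor CD169, ranged from 9.89 to 23.6 TPM (median 12.9) in parental tumors and from 5.21 to 13.7 TPM (median 7.65) in resistant tumors. For Siglec1 10 of 12 resistant tumors lay below the lowest parental tumor, and the log2 fold change was -0.72 ± 0.15 (SE, limma adjusted p = 0.000675). Cd163, the receptor that clears haemoglobin bound to haptoglobin, went the other way. It ranged from 0.688 to 8.65 TPM (median 1.996) in parental tumors and from 3.34 to 17.8 TPM (median 5.55) in resistant tumors, with means of 2.95 ± 2.52 (SD, n = 13) and 6.96 ± 4.33 TPM (n = 12). Of the parental tumors 10 lay below the lowest resistant tumor, the parental tumors 3, 11 and 12 held 7.68, 8.65 and 4.86 TPM, and the log2 fold change was 1.07 ± 0.26 (SE, limma adjusted p = 0.00264). Leaving out 1 tumor at a time gave 0.95 to 1.20.

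Mrc1 and Folr2, which are often read with Cd163 as marks of the scavenging state, were not called. Mrc1, the mannose receptor CD206, was at 8.67 ± 4.27 TPM on average in the parental line against 6.52 ± 4.06 TPM in the resistant line, a log2 fold change of -0.40 ± 0.23 (SE, limma adjusted p = 0.202) with a 95% interval of -0.88 to 0.08. Folr2, a folate receptor of resident macrophages, was at 9.24 ± 6.35 TPM on average in the parental line against 6.8 ± 3.01 TPM in the resistant line, and the difference was -0.26 ± 0.28 (SE, limma adjusted p = 0.519) with an interval of -0.84 to 0.32. Marco, a scavenger receptor for bacteria, reached 1 TPM in 4 parental and 8 resistant tumors. Parental tumors 3 and 11 held 16.03 and 16.7 TPM of Marco against at most 1.35 TPM in the other parental tumors, and the log2 fold change was 0.26 ± 0.42 (SE, limma adjusted p = 0.667), with an interval of -0.60 to 1.13. Vsig4, a complement receptor of resident macrophages, reached 1 TPM in 1 parental and 3 resistant tumors and was not tested.

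Of the effector and lysosomal genes absent from culture, Cybb and Pld4 fell, and Ctss fell with a call that several settings ended. Cybb, the catalytic subunit of the phagocyte oxidase, ranged from 16.9 to 70.6 TPM (median 53.03) in parental tumors and from 13.1 to 50.3 TPM (median 24.5) in resistant tumors, with 7 parental tumors above every resistant one and a log2 fold change of -0.74 ± 0.22 (SE, limma adjusted p = 0.0118). Pld4, an endolysosomal exonuclease that B cells and plasmacytoid dendritic cells also express, ranged from 5.26 to 89.3 TPM (median 45.004) in parental tumors and from 13.3 to 45.7 TPM (median 20.98) in resistant tumors. The low parental value belongs to tumor 3, the next parental tumor held 28.6 TPM, and the log2 fold change was -0.92 ± 0.30 (SE, limma adjusted p = 0.0208). Beside Pld4, 2 of 3 tested B cell markers were lower, Cd79a by a log2 fold change of -2.003 and Cd79b of -1.30, against 13.9% of all 12095 genes. The sum of the 6 listed was 33.3 to 59.7 TPM in parental and 24.7 to 49.6 TPM in resistant tumors. The MC38 cultures also carried this sum, with 18.6 to 19.8 TPM in the parental and 23.7 to 32.9 TPM in the resistant line, so it is not a measure of B cells alone. Dendritic cell markers summed to 5.65 to 15.2 TPM in parental and 6.75 to 11.5 TPM in resistant tumors. The same sum was 1.645 to 1.655 TPM in parental and 2.72 to 3.81 TPM in resistant culture. The part of either cell type was not tested. Ctss, the cathepsin that trims the invariant chain of MHC class II, ranged from 89.6 to 509 TPM (median 342) in parental tumors and from 129 to 326 TPM (median 213) in resistant tumors, with 8 parental tumors above every resistant one and a log2 fold change of -0.59 ± 0.22 (SE, limma adjusted p = 0.0403). It lost its call in 15 of 25 fits that left out 1 tumor (parental 1, 4, 5, 6, 9, 10, 11, 12 or 13, or resistant 2, 3, 6, 8, 11 or 12), at -0.59 to -0.53. A fit with Ptprc as a covariate gave -0.19 (limma adjusted p = 0.205). With Ptprc as a covariate Cybb was at -0.43 (0.0537) and Pld4 at -0.42 (0.0965), both without a call. Lyz1, a lysozyme gene, was at 0.514 ± 0.644 and 1.12 ± 1.05 TPM and was not tested. Its transcript shares 34.2% of its 31-base words with that of Lyz2, so its low values are uncertain.

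The genes that MC38 cells themselves express cannot be assigned to host macrophages from a bulk library, and their culture values are set beside the tumor values. By mean TPM, the same 7 of the 35 genes came first in the tumors of either line. Apoe held rank 1, Laptm5 rank 3, Cd68 rank 5, Lyz2 rank 6 and Gpnmb rank 7 in both, while Fcer1g and Ctss held ranks 2 and 4 in parental tumors and 4 and 2 in resistant tumors. The class limit of 1 TPM fell close to a few genes: Fcgr4 was counted as expressed in culture on a parental mean of 1.02 TPM, from 0 and 2.04 TPM, while Ctss with 0.862 TPM in resistant culture and Pld4 with 0.836 TPM in parental culture were counted as absent. With a limit of 0.5 TPM 20 genes would be absent, and requiring every culture to be under 1 TPM would leave 19.

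Apoe, the lipid-carrying apolipoprotein that macrophages release, was the most abundant of the 35 genes in tumors and had the largest fall. It ranged from 510.2 to 3156 TPM (median 1671) in parental tumors and from 369.7 to 829.5 TPM (median 550.2) in resistant tumors, and its culture values were 2.14 and 1.86 TPM in the parental cultures and 6.28, 2.2, 12.1, 4.76 and 18.3 TPM in the resistant cultures. Of the parental tumors 12 lay above the highest resistant tumor, and the log2 fold change in tumors was -1.46 ± 0.20 (SE, limma adjusted p = 6.09e-06). In culture the difference had the opposite sign, 1.43 ± 0.59 (SE, limma adjusted p = 0.141), and was not called. Subtracting the culture difference from the tumor difference in 1 fit over all 32 libraries gave -2.89 ± 0.54 (SE, limma adjusted p = 0.000704).

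Lyz2, the lysozyme M gene of myeloid cells, was near the class limit in culture, with 0.476 and 3.48 TPM in the parental cultures and 0, 0.293, 0.656, 0.628 and 0.166 TPM in the resistant cultures. In tumors it ranged from 85.5 to 342 TPM (median 125) in parental tumors and from 45.7 to 133 TPM (median 62.6) in resistant tumors. Of the resistant tumors 10 lay below the lowest parental tumor, and the log2 fold change was -1.11 ± 0.20 (SE, limma adjusted p = 0.000107). Its transcript shares 32.8% of its 31-base words with that of Lyz1, so reads may have been divided between the 2 genes. Fcgr4, an activating receptor for IgG2, ranged from 10.04 to 49.7 TPM (median 32.4) in parental tumors and from 9.2 to 29.8 TPM (median 15.01) in resistant tumors, with 8 parental tumors above every resistant one and a log2 fold change of -0.92 ± 0.21 (SE, limma adjusted p = 0.00147). It was listed at 0 in 6 of the 7 cultures.

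Cd68, Gpnmb and Selenop were lower in the resistant line both in tumors and in culture. Cd68, a lysosomal membrane protein used to stain macrophages, ranged from 90.8 to 296 TPM (median 204) in parental tumors and from 54.1 to 131 TPM (median 95.7) in resistant tumors, 12 parental tumors lay above every resistant one, and the log2 fold change was -1.06 ± 0.16 (SE, limma adjusted p = 2.18e-05). Its culture values were 11.9 and 31.5 TPM in the parental cultures and 6.11, 5.75, 5.18, 6.86 and 6.7 TPM in the resistant cultures, a difference of -1.53 ± 0.32 (SE, limma adjusted p = 0.0142). Gpnmb, a lysosomal glycoprotein of lipid-laden macrophages and pigment cells, was about as abundant in culture as in tumors. It ranged from 47.6 to 197 TPM (median 95.4) in parental tumors and from 38.96 to 72.8 TPM (median 54.96) in resistant tumors, with 10 parental tumors above every resistant one and a log2 fold change of -0.76 ± 0.17 (SE, limma adjusted p = 0.00104). In culture it was at 96.2 and 106 TPM in the parental cultures and 79.96, 50.4, 40.003, 42.95 and 38.6 TPM in the resistant cultures, a difference of -1.04 ± 0.26 (SE, limma adjusted p = 0.0293). Selenop, the selenium transport protein that resident macrophages express, ranged from 29.2 to 152 TPM (median 67.2) in parental tumors and from 12.97 to 74.7 TPM (median 30.9) in resistant tumors, with 5 parental tumors above every resistant one and a log2 fold change of -0.99 ± 0.25 (SE, limma adjusted p = 0.00382). In culture it was at 6.003 and 6.89 TPM in the parental cultures and 1.27, 0, 0.659, 0 and 0.671 TPM in the resistant cultures, a difference of -2.36 ± 0.37 (SE, limma adjusted p = 0.00411). It entered the culture test through the parental cultures, which alone were enough for the filter, so that difference was in part fixed by how it was chosen. The tumor difference minus the culture difference was 0.47 for Cd68 (95% interval -0.32 to 1.25), 0.28 for Gpnmb (-0.49 to 1.05) and 1.37 for Selenop (0.23 to 2.51), with limma adjusted p = 0.674, 0.838 and 0.205.

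**Figure D3:**
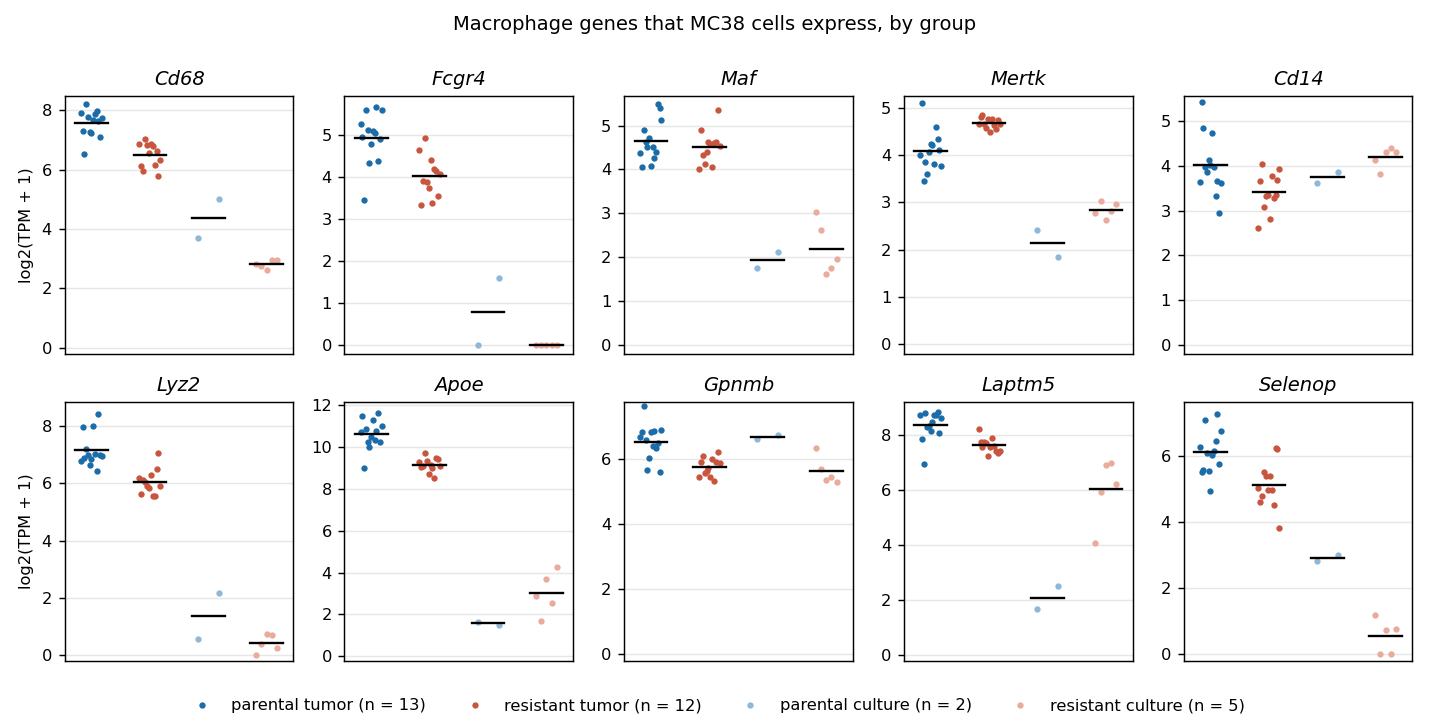
Level of the 10 macrophage genes expressed in culture, log2(TPM + 1) on the y axis of each panel, with a point for each library of the 4 groups and a black bar at the group mean. Gpnmb and Cd14 stand at similar levels in tumors and culture, Laptm5 is lowest in the parental cultures, and Apoe, Lyz2 and Fcgr4 are far higher in tumors.

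Laptm5 had opposite differences in the tumors and the cultures. It encodes a lysosomal membrane protein of blood-derived cells that lowers antigen receptor levels. In culture it was at 2.21 and 4.67 TPM in the parental cultures and 15.9, 59.98, 121, 128 and 73.9 TPM in the resistant cultures, a log2 fold change of 3.94 ± 0.68 (SE, limma adjusted p = 0.00606). In tumors it ranged from 124 to 459 TPM (median 356) in parental tumors and from 152 to 299 TPM (median 192) in resistant tumors, a log2 fold change of -0.73 ± 0.16 (SE, limma adjusted p = 0.000981). Of the parental tumors 9 lay above every resistant tumor and 1 below, and the tumor difference minus the culture difference was -4.67 ± 0.52 (SE, limma adjusted p = 1.28e-07). Cd14, the lipopolysaccharide co-receptor, differed less. It ranged from 6.74 to 42.2 TPM (median 14.6) in parental tumors and from 5.13 to 15.4 TPM (median 9.27) in resistant tumors, with 4 parental tumors above every resistant one and a log2 fold change of -0.60 ± 0.21 (SE, limma adjusted p = 0.0341). The culture values were 11.4 and 13.5 TPM in the parental cultures and 16.5, 13.2, 18.9, 20.2 and 18.8 TPM in the resistant cultures, a difference of 0.45 ± 0.20 (SE, limma adjusted p = 0.166). The tumor difference lost its call and most of its size once the GC index was a covariate (-0.15, limma adjusted p = 0.463) and once parental tumors 2, 3, 7 and 8 were left out (-0.27, limma adjusted p = 0.255). It also lost the call without parental tumor 2, 3 or 8 or resistant tumor 1, 4 or 7 alone, at -0.57 to -0.48.

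Mertk, the receptor kinase through which macrophages take up dying cells, and the transcription factor gene Maf complete the class. Mertk ranged from 9.99 to 33.2 TPM (median 15.7) in parental tumors and from 21.4 to 27.9 TPM (median 24.3) in resistant tumors, so that resistant tumors were closely grouped. Of the parental tumors 11 lay below the lowest resistant tumor and 1, tumor 2 with 33.2 TPM, lay above the highest, and the log2 fold change was 0.59 ± 0.13 (SE, limma adjusted p = 0.00118). Culture values were 4.36 and 2.62 TPM in the parental cultures and 5.82, 7.15, 5.2, 6.02 and 6.83 TPM in the resistant cultures, every resistant culture above both parental ones, and the difference there was 0.70 ± 0.24 (SE, limma adjusted p = 0.0785), which was not called. The tumor difference minus the culture difference was -0.11 with a 95% interval of -0.71 to 0.49 (limma adjusted p = 0.926). Maf was at 25.4 ± 9.14 TPM on average in the parental line against 22.6 ± 6.79 TPM in the resistant line, -0.14 ± 0.16 (SE, limma adjusted p = 0.55) with an interval of -0.48 to 0.20, and in culture at 2.39 and 3.36 TPM in the parental cultures and 7.19, 5.15, 2.08, 2.38 and 2.88 TPM in the resistant cultures.

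In culture as a whole, 9 of the 35 genes reached the level needed for a test (1 TPM in at least 2 cultures), 8 of the 10 expressed in culture and Fcer1g. Of these 3 were called lower, against 8.04% of 11201 genes, and 1 higher, against 6.15%. The 3 include Selenop, which entered the test through the parental cultures where it was high, so its call was in part fixed by that choice. The calls rested on the 2 parental cultures. Without parental culture 2 none of the 9 was called in either direction, and without parental culture 1 Laptm5 was not called (3.53 on the log2 scale), the remaining parental culture then being assumed to vary like the others. Gpnmb was not called without parental culture 1 or resistant culture 3, 4 or 5 (-1.11 to -0.96), while without parental culture 2 Cd68 was at -0.87, Selenop at -2.28, Gpnmb at -0.97 and Laptm5 at 4.35. Without resistant culture 2, Apoe was also called higher (1.76, limma adjusted p = 0.046).

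Tumors were set against cultures of the same line for the genes that reached 1 TPM in every culture of that line, since a gene near 0 in culture could enter the test only through the tumors. Of 8 such genes in the parental line 6 were called higher in tumors than in culture, against 16.1% of 14348 genes, and 0 lower by limma (also 0 at an unadjusted p under 0.05), against 5.99%. In the resistant line 5 of 7 were called higher, against 35.3% of 12312 genes, and 1 lower, against 15% of them. These shares are over all genes tested, with no such limit on the culture level, so the counts and the shares cover unlike sets. The limit was chosen after the values were seen, and it leaves out Fcgr4 and Lyz2 in both lines and Selenop in the resistant line. Apoe had the largest rise, with log2 fold changes of 9.02 ± 0.45 (SE, limma adjusted p = 7.47e-11) and 6.14 ± 0.28 (SE, limma adjusted p = 1.28e-13) in the parental and the resistant line. Mertk rose by 1.95 and 1.84. Laptm5 rose by 6.27 in the parental and by 1.60 in the resistant line. Gpnmb was not called in either line (-0.15, 95% interval -0.90 to 0.61, and 0.13, -0.21 to 0.47), and Cd14 was not called in the parental line (0.27, adjusted p = 0.676 by limma) and lower in resistant tumors than in resistant culture (-0.79, adjusted p = 0.0025). For the genes absent from culture the low culture level was the rule of choice, so their rise is no result. Tumor and culture libraries carry different prefixes in their titles, so setting and library series cannot be told apart. Among the tumors, the title numbers of the parental line all lie below those of the resistant line. What these numbers stand for is not given in the sources used here. If they mark an order of handling, it cannot be told apart from the line.

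Over all 32 libraries the line difference was lower in tumors than in culture for 2 of the 10 genes expressed in culture, Laptm5 and Apoe, against 1.61% of 15061 genes, and higher for 0 by limma, against 2.4%. At an unadjusted p under 0.05 it was higher for 1, Selenop. For the 25 genes absent from culture the term mostly restates the tumor difference and compares little with culture. It was called for 1 of them, Tyrobp, where the cultures are all at 0 and the value (-1.10, adjusted p = 0.0304 by limma) is the tumor difference itself. That call was lost without either parental culture (adjusted p = 0.139 and 0.237). Adgre1, at -1.27, had a limma adjusted p of 0.0593 in the same fit. The number called lower, 3 over all 35 genes, was 7 without parental tumor 3 and 7 after quantile normalization. This comparison uses the same tumors as that of the lines in tumors, so its counts are not separate evidence.

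The size of the fall was then compared with that of Adgre1, by subtracting from each gene the log2(TPM + 1) of Adgre1 in the same library. This shows unequal change only, and since Adgre1 has the largest fall of the genes absent from culture most genes lie above it: 93.8% of 12094 genes were called higher relative to Adgre1 and 0.38% lower, with a median of 1.23. Of the 32 other macrophage genes tested, 16 were called higher relative to Adgre1 and 0 lower by limma (also 0 lower at an unadjusted p under 0.05), with a median of 0.43. The 6 genes closest to Adgre1 were Lyz2 at 0.07 (95% interval -0.40 to 0.55), Tyrobp at 0.08 (-0.30 to 0.47), Aif1 at 0.11 (-0.32 to 0.53), Cd68 at 0.12 (-0.26 to 0.50), Itgam at 0.13 (-0.31 to 0.57) and Fcer1g at 0.15 (-0.22 to 0.52). Those that departed most were Cd163 at 2.26 ± 0.32 (SE, limma adjusted p = 9.05e-08), Mertk at 1.78, Marco at 1.45, Itgax at 1.19, Maf at 1.05 and Folr2 at 0.93. Fcgr2b, Mrc1, Spi1 and Ctss followed between 0.59 and 0.79. Csf1r, at 0.39, adjusted p = 0.0352 by limma, fell by less than Adgre1, and the call of Cybb lay at the threshold (adjusted p = 0.05).

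Tumor by tumor, parental tumors 11 and 3 stood at the ends for the genes absent from culture, and the other 11 parental tumors were mixed, with 5 to 19 of 23 genes above the line mean. Taking for each tumor the median over the 23 tested genes of the log2 level minus the mean of its own line, parental tumor 11 was highest at 0.68, with all 23 genes above the line mean and the highest value of the line in 9. Parental tumor 10 followed at 0.37 and held the highest Ptprc of the parental line, 53.7 TPM. Parental tumor 3 was lowest at -1.20, with 8.23 TPM of Adgre1 and 5.26 TPM of Pld4. Only 4 genes were above the line mean in that tumor. It held 7.68 TPM of Cd163, 13.2 TPM of Mrc1, 15.4 TPM of Folr2 and 16.03 TPM of Marco, all above the line mean, while Msr1 and Siglec1 were below it. The resistant tumors were closer together, from -0.23 in tumor 12 to 0.29 in tumor 4, where 22 of 23 genes lay above the line mean. Resistant tumors 10 and 11 had the highest Cd163, 13.9 and 17.8 TPM, and also the highest Mrc1, 12.7 and 16.5 TPM. Tumor 11 at the same time had the lowest Fcer1g and the lowest Spi1 of its line, 110.4 and 23.5 TPM.

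**Figure D4:**
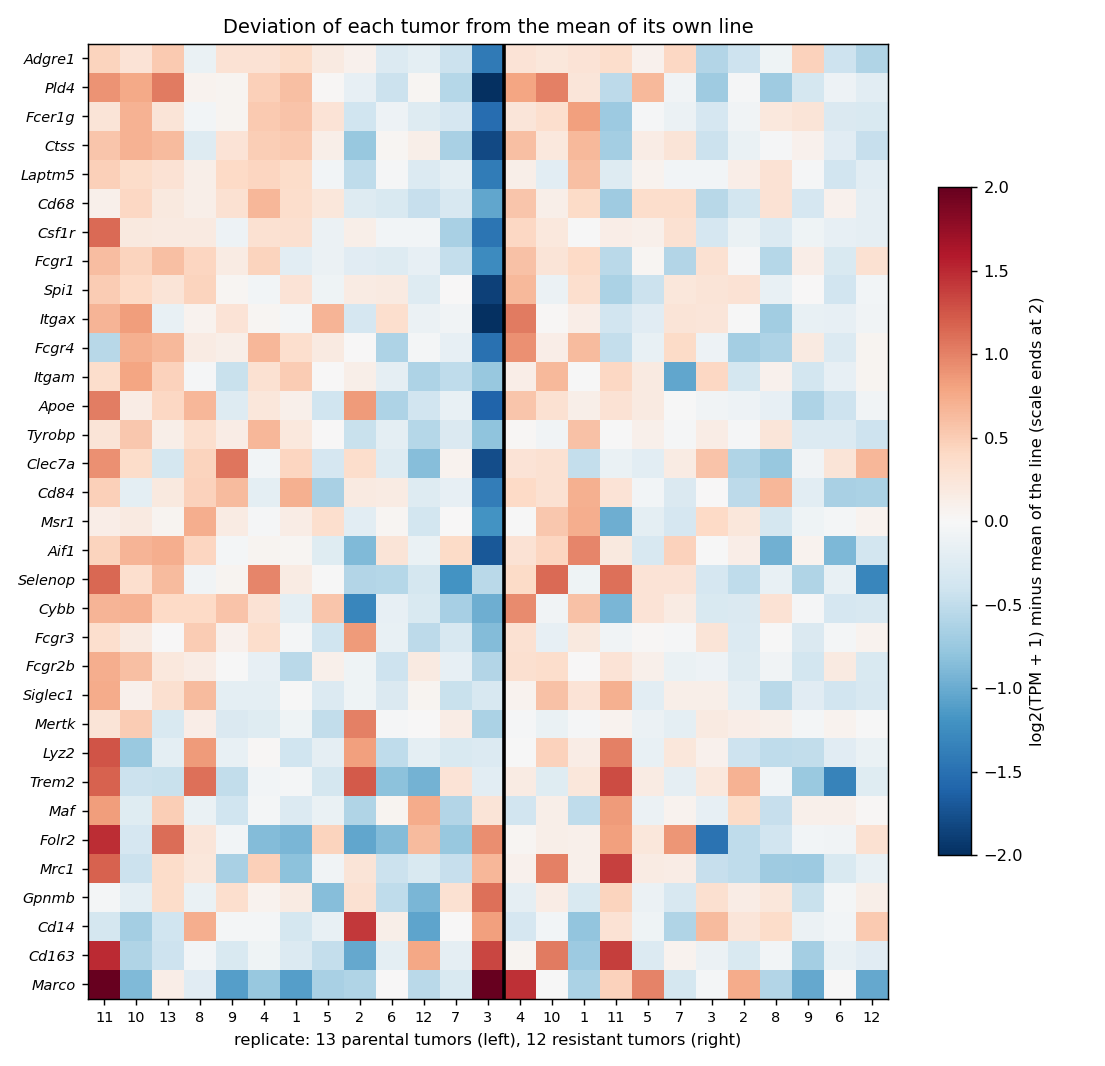
Deviation of each of 33 macrophage genes (y axis) in each tumor (x axis, by replicate number) from the mean of its own line, in log2(TPM + 1), with values beyond 2 shown at the end of the color scale. Parental tumor 3 is blue for most genes and red for Cd163, Marco, Folr2 and Mrc1, and parental tumor 11 is red for nearly all.

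Across the tumors of a line, Adgre1 was set against each of the 32 other tested genes and Ptprc, which made 66 relations over both lines with Benjamini-Hochberg adjustment. In the 13 parental tumors 14 of 32 genes had an adjusted permutation p under 0.05 by Pearson's r, all positive, and 9 of them also by Spearman's rho. The share of all genes related to Adgre1 in this way was not computed for either line. The counts therefore do not show that macrophage genes follow Adgre1 more than other genes do. Pld4 was closest, with r = 0.96 (permutation p = 1e-05, the smallest that 100000 resamples can give, adjusted 0.00066) and rho = 0.90 (permutation p = 6e-05, adjusted 0.00297). Fcer1g had r = 0.90 (permutation p = 0.00045, adjusted 0.00607) and rho = 0.74 (0.00511, adjusted 0.0464), and Ctss r = 0.90 (permutation p = 0.00046, adjusted 0.00607) and rho = 0.83 (0.0007, adjusted 0.0154). The relations rest in part on the tumors with the lowest Adgre1. Without tumors 3 and 7, the 2 farthest from the median of Adgre1, r was 0.83 for Pld4, 0.66 for Fcer1g and 0.62 for Ctss, and the median r over the 32 genes went from 0.69 to 0.29. Mrc1 (r = -0.10), Folr2 (-0.07), Maf (0.00), Trem2 (0.11), Lyz2 (0.19) and Cd163 (-0.44) had no called relation with Adgre1 in parental tumors, with adjusted permutation p from 0.245 to 0.995, and their rho lay between -0.23 and 0.26 with adjusted permutation p from 0.575 to 0.833.

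In the 12 resistant tumors 1 of 32 genes was called, Csf1r, with r = 0.72 (permutation p = 0.0101, adjusted 0.0437) and rho = 0.69 (permutation p = 0.0158, adjusted 0.0868). Its r was 0.61 without tumors 3 and 12. The median r was 0.26 and went to 0.19 without these tumors. Whether the relations differ between the lines was not tested, and Adgre1 spanned a narrower range in resistant tumors, 6.19 to 13.9 TPM against 8.23 to 34.5 TPM. Against Cd163, chosen for this comparison after its values were seen, none of the 66 relations was called after adjustment by r or by rho, and r ran from -0.67 to 0.83. In the resistant line Mrc1 had r = 0.83 (permutation p = 0.00393, adjusted 0.0678) and rho = 0.52 (0.0881, adjusted 0.632), and r was 0.16 without tumors 10 and 11. Marco in parental tumors had r = 0.83 (permutation p = 0.00514, adjusted 0.0678) and rho = 0.55 (0.0533, adjusted 0.632), which became 0.11 without tumors 3 and 11. Maf in parental tumors had r = 0.74 (permutation p = 0.00459, adjusted 0.0678) and rho = 0.60 (0.0322, adjusted 0.632), and r was 0.67 without the same tumors.

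**Figure D5:**
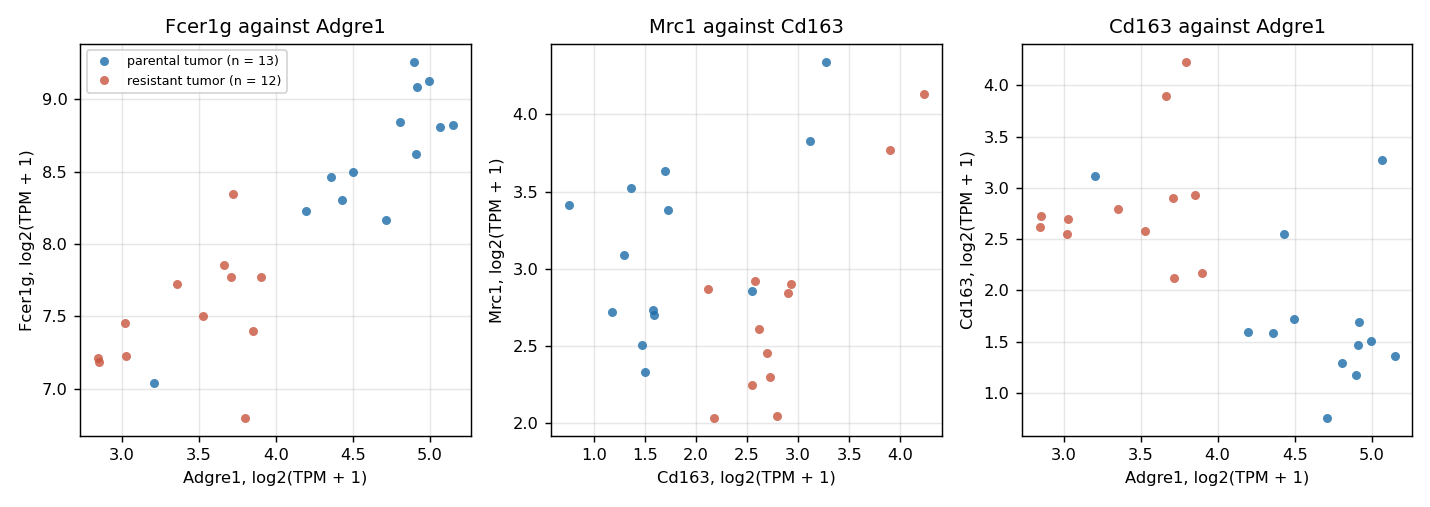
Levels of 3 pairs of macrophage genes in 13 parental and 12 resistant tumors, both axes in log2(TPM + 1), with a point per tumor. Fcer1g follows Adgre1 in the parental line, the relation of Mrc1 with Cd163 in the resistant line rests on the 2 tumors at the upper right, and most resistant tumors have less Adgre1 and more Cd163 than most parental tumors.

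Genes that work with the members were read from lists of partners. Of all 12095 genes tested, 13.9% were called lower and 16.3% higher in resistant tumors, and each list count below stands against these shares. In lists this short a single call is no result about the list. Of 5 tested genes for ligands of Csf1r and related growth factor receptors 3 were lower in resistant tumors and 0 higher: Il34 (-0.92), the second ligand of Csf1r, Csf3r (-0.85), the granulocyte colony-stimulating factor receptor, and Csf2ra (-0.59). MC38 cells also express Il34, with a culture difference of opposite sign that was not called (0.85, limma adjusted p = 0.256). Its tumor difference minus its culture difference was -1.76 (limma adjusted p = 0.0192). Of 10 genes for ITAM signaling and related adaptors, kinases and phosphatases 6 were lower and 0 higher. They were led by the adaptor Hcst (-1.01), the phosphatases Ptpn6 (-0.76) and Inpp5d (-0.71) and the kinase Btk (-0.73). The median of this list was -0.55. Of 5 genes for relatives and ligands of Mertk 1 was lower, the related receptor kinase Axl (-0.72), and 1 was higher, the ligand Pros1 (0.54 ± 0.19 (SE, limma adjusted p = 0.0303)), which was also called higher in resistant culture. Of 5 partners of the phagocyte oxidase and of Itgam 4 were lower, among them Ncf1 (-0.82), Rac2 (-0.78) and the integrin beta chain Itgb2 (-0.48), with Cyba not analysed here. Rac2 and Itgb2 also reached the level for a test in culture. Rac2 was called lower in resistant culture too (-1.05, limma adjusted p = 0.0337), and Itgb2 was not called there (1.15, limma adjusted p = 0.374). The fall of Rac2 in tumors is therefore not a measure of host cells alone.

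Of 15 lysosomal genes 6 were lower and 0 higher in resistant tumors, with a median of -0.10. Those lower included the asparaginyl endopeptidase gene Lgmn (-0.65), Psap (-0.60) and Ctsb (-0.47). Of 8 tested transcription factors of macrophages 3 were lower, among them Cebpa (-0.83) and Nr1h3 (-0.50), and 1 was higher, Mitf (0.54), a factor of melanocytes, mast cells and osteoclasts. MC38 cells also express Nr1h3 and Mitf. In resistant culture Nr1h3 was called higher (1.65, limma adjusted p = 0.0348), opposite in sign to its tumor difference, and Mitf was not called (-0.35, limma adjusted p = 0.538). Of 10 further macrophage genes 6 were lower and 0 higher, led by Ms4a7 (-1.50) and C1qa (-1.14). Among markers of other cells, 1 of 6 for monocytes was lower (Cx3cr1, -0.91) and 0 higher, 1 of 2 for dendritic cells was lower (Ccr7) and 1 higher (Zbtb46), and 2 of 4 pan-leukocyte genes were lower. MC38 cells also express Zbtb46, which reached the level for a test in culture (0.64, limma adjusted p = 0.0941, not called). None of 6 T cell, 2 mast cell or 6 endothelial markers was called by limma in either direction (at an unadjusted p under 0.05, 1 T cell and 1 mast cell marker were lower and 1 endothelial marker higher). Of 5 fibroblast markers 2 were higher, Dcn (1.39) and Col1a1 (2.18). The MC38 cultures carried the fibroblast list too, summing to 34.5 to 61.6 TPM in the parental and 261 to 835 TPM in the resistant line. In resistant culture Dcn was also called higher (6.87, limma adjusted p = 0.000187), while Col1a1 was not called (1.28, limma adjusted p = 0.185). These 2 are therefore not a measure of host fibroblasts alone.

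Promoter sequences were read for the members because many of them fell together and because the gene of PU.1, a factor that binds many macrophage promoters, is itself a member. RefSeq promoters of the build GRCm38.p6, from 250 bases before to 50 bases after a start, were found for 27 of the 35 genes, 34 promoters in all. There was none for Adgre1, Csf1r, Maf, Tyrobp, Cd14, Spi1, Msr1 and Siglec1. The letters GAGGAAGT, a PU.1 core with its purine flank, were searched on both strands and occur in 5 of the 34 promoters (14.7%), those of Ctss, Fcgr4 and Pld4 and both promoters of Selenop, against 3.2% of all 32851 promoters in the same reference. The 2 promoters of Selenop may hold the same stretch of letters, and by gene the count is 4 of 27. The share of all promoters was not counted by gene. The E-box TCACGTGA of the MiT/TFE family occurs in none of the 34 against 0.974% of all, and the related CATGTGA in 3 (8.82%), those of Ctss, Marco and Mrc1, against 3.99%. In the members' promoters no match of 1 motif overlaps a match of another. A match of letters is not a binding site. Stretches of 100 bases are shown for 2 genes that fell and hold the PU.1 letters and for the 2 that rose, chosen after their values were seen. Capitals mark the PU.1 letters, which in both cases lie on the opposite strand and so read ACTTCCTC, and the stretch of Cd163 and that of Mertk hold none. Fcgr4, Cd163 and Mertk show the 100 bases before the start (chr1:171018826-171018925, chr6:124304551-124304650 and chr2:128698815-128698914, plus strand), and Selenop shows bases 250 to 151 before the start (chr15:3270517-3270616, plus strand).
Fcgr4: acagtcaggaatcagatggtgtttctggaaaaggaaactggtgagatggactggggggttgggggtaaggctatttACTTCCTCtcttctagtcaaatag
Selenop: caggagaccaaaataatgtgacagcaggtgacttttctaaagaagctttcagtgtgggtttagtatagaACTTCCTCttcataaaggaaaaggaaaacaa
Cd163: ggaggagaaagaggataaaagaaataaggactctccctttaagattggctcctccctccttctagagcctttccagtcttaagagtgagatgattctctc
Mertk: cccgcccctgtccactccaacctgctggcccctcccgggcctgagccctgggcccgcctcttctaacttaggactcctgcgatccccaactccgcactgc

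The fall called in Fcgr4 was -0.92 and in Selenop -0.99, and the other genes whose promoters hold the letters, Ctss and Pld4, were at -0.59 and -0.92, on either side of the median of -0.76 over the 33 genes. Genes without the letters in these windows reached from -1.46 for Apoe to 1.07 for Cd163.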

How the data were processed

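Poly(A) RNA of 25 tumors and 7 cultures of MC38 was sequenced. Per the labels' protocols, Qiagen kits with a DNase step gave the RNA and KAPA HyperPrep kits the libraries. The authors deposited 1 table of TPM by mouse gene symbol, each column summing to 1000000. Per the submitters' processing notes, STAR and GRCh38 were used. The latter is a build of the human genome, the quantifier is not given in the sources used here, and the smallest value above zero is 8.57e-317, so the TPM are estimates from which no reads can be recovered.

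The members and lists were chosen with earlier results of these data known. Line and setting in the labels gave the groups, and samples were numbered in accession order. Whether the cultured libraries come from separate cultures is not stated, so p-values reflect only how far these samples vary, and that variation may be technical. All fits used limma 3.58.1 (R 4.3.3) on log2(TPM + 1) of the libraries compared, with a trend of variance on mean level. Tests were two-sided, p-values were adjusted by Benjamini-Hochberg across every gene tested, and 0.05 was the limit. Testing required 1 TPM in as many libraries as the smaller of the groups has. The pseudocount of 1 understates fold changes of low genes. Every member is accounted for, tumor values are given for members called in tumors with a mean of at least 5 TPM, and partners named are up to 4 called genes per list with the largest change, some of which are not reported here. Correlations used 100000 resamples. The GC index used 2146 genes with a GC fraction over 0.55 and 1274 under 0.42, from GENCODE mouse release M21 transcripts, which gave a value for 98.6% of 10046 genes. The 31-base words came from these transcripts, the promoters from RefSeq. The scripts were tested on simulated data. The settings varied were the pseudocount (0.1), the filter (none, or 5 TPM), the scaling (quantile, median-of-ratios), array weights, the libraries in the fit, and Ptprc or the GC index as a covariate. Software for the remaining steps was Python 3.11.15 (numpy 2.4.6, pandas 2.3.3, scipy 1.17.1, matplotlib 3.10.9).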

Additional observations from a re-analysis of the deposited data

Results flagged for a closer look

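Gpnmb in resistant culture 1 was at 79.957 TPM, while the other 4 resistant cultures held 38.6 to 50.4 TPM, so this culture lay far from the others of its group. It was the 1 such case among 9 sets of culture values looked at, and chance gives such a case in about 1 in 20 groups.

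For 2 of the 10 genes expressed in culture the difference between the lines was not the same in tumors as in culture by the limma interaction term. It was -4.6731 on the log2 scale for Laptm5, higher in resistant culture and lower in resistant tumors, and -2.8893 for Apoe, lower in resistant tumors and not called in culture. For Tyrobp the same term was also called, at -1.1035, but Tyrobp was at 0 in every culture, so the value is its tumor difference and compares nothing with culture, and the call was lost without either parental culture (limma adjusted p = 0.139 and 0.237). Leaving out each library in turn gave -5.16 to -4.26 for Laptm5 and -3.22 to -2.57 for Apoe, all called.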

How the results depend on the processing

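The number of macrophage genes called lower in resistant tumors was 25, and it stayed between 20 (Ptprc as a covariate) and 26 (array weights) over 10 alternatives and between 23 and 25 without each tumor. The number called higher was 2 in 9 of the alternatives and in every fit without 1 tumor, and 1 with a filter at 5 TPM, where Cd163 was too low to be tested. With median-of-ratios scaling the median of all genes was 0.01, and 25 macrophage genes were lower and 2 higher, against 1822 and 1747 of all 12095 genes. With no filter Ctss, Clec7a and Cd14 lost their calls (limma adjusted p = 0.0727, 0.0685 and 0.0614). Itgax, at 0.00, changed sign to -0.035 with quantile normalization, -0.023 with median-of-ratios scaling, -0.11 with array weights, -0.22 when the GC index was a covariate and -0.28 without parental tumors 2, 3, 7 and 8, and ran from -0.18 to 0.0746 without each tumor, never with a call. In culture, leaving out 1 library gave 0 to 4 genes lower and 0 to 2 higher. The genes whose difference was lower in tumors than in culture numbered 6 with a pseudocount of 0.1, when 1 was also higher, 7 with quantile normalization, and 2 to 7 without each library. The cause of these shifts was not tested. No paired analysis was possible because the labels give no replicate numbers and nothing that ties a sample of one group to a sample of another. The depth of the libraries is unknown, so what it limits cannot be stated, and genes near 1 TPM such as Marco, Lyz1 and Vsig4 are the least certain.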
